A study of Mus musculus with 6 samples.

Results

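The genes described here are 10 that encode brakes on T cells: 8 coinhibitory receptors (Pdcd1, Ctla4, Lag3, Havcr2, Tigit, Cd160, Btla and Cd244), the ectonucleotidase gene Entpd1, and Tox, a nuclear factor gene. They were taken by exact symbol from a table of raw counts for 45808 gene symbols, and each symbol occurred there once. T cells from the spleens of C57BL/6 mice, aged 2 months, had been stimulated in culture with antibodies to CD3 and CD28 together with IL-2, and their polyadenylated RNA was sequenced. The wild-type group held 3 libraries, and the other group held 3 libraries of genotype Drp1-/- (KO here); Drp1, encoded by Dnm1l, is the GTPase that divides mitochondria. The sources used here do not say how the gene was deleted, in which cells, or how the T cells were purified. Whether the replicates are different mice or cultures is not stated in the labels, and p-values therefore measure the spread between these libraries, which may be technical.

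Coinhibitory receptors are induced on T cells by antigen receptor stimulation and dampen the signals of that receptor and of CD28. They are known both as markers of recent activation and, where several persist together, of the exhausted state of chronically stimulated T cells, which the nuclear factor Tox helps to maintain. PD-1 (Pdcd1), BTLA and TIGIT carry tyrosine motifs in their tails that recruit phosphatases. CTLA-4 takes the ligands of CD28 away from it, LAG-3 binds MHC class II, and CD39 (Entpd1) breaks down extracellular ATP on the path to adenosine.

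Library totals ran from 24738017 to 34730475 counts, so the floor of 3 counts was worth 0.0864 to 0.121 CPM. CPM is a gene's share of its library's total, set to a common library size and scaled by TMM factors. Dnm1l was lower in KO at 92.6 to 100.7 CPM, against 116.6 to 123.2 CPM in wild type. Xist, which is read from the inactive X chromosome of females, was at 0 to 0.101 CPM in wild type, while KO libraries held 418 to 472 CPM, so genotype and this difference between the groups cannot be told apart. Wild-type replicate 1 stood apart from replicates 2 and 3, with a chi-square per gene of 12.2 and 13.6 against them, while those differed by 2.56. All 10 T cell markers were read in every library, and 8 fell and 0 rose, where 26.1% of all tested genes fell. Their summed level was 3503 to 3640 CPM in wild type, against 2969 to 3084 CPM in KO. Cd3e, one of those that fell, was at 284 to 289 CPM in wild type, against 221 to 234 CPM in KO. All 9 B cell markers were read as well, at a summed 538 to 550 CPM in wild type, against 463 to 486 CPM in KO. In bulk RNA, fewer cells of a type and less RNA per cell cannot be told apart.

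The KO cultures did not move the 10 genes together. The receptor genes Pdcd1, Havcr2 and Cd244 rose, the receptor genes Ctla4, Lag3 and Tigit fell, and Btla, Cd160, Entpd1 and Tox did not pass the test. The 10 genes all passed the expression filter, and calls were made at an adjusted p under 0.05 by edgeR's quasi-likelihood test with Benjamini-Hochberg adjustment over all 14209 tested genes. Of all tested genes 52.9% were called, 26.7% higher and 26.1% lower, so 6 of 10 is near the background. The median log2 fold change of the 10 genes was -0.03 (all tested genes 0.01), and their median size of change was 0.43 (all tested genes 0.27). The KO libraries lay on 1 side of the wild-type libraries for 7 of the 10 genes, against 63.3% of all tested genes.

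**Figure D1:**
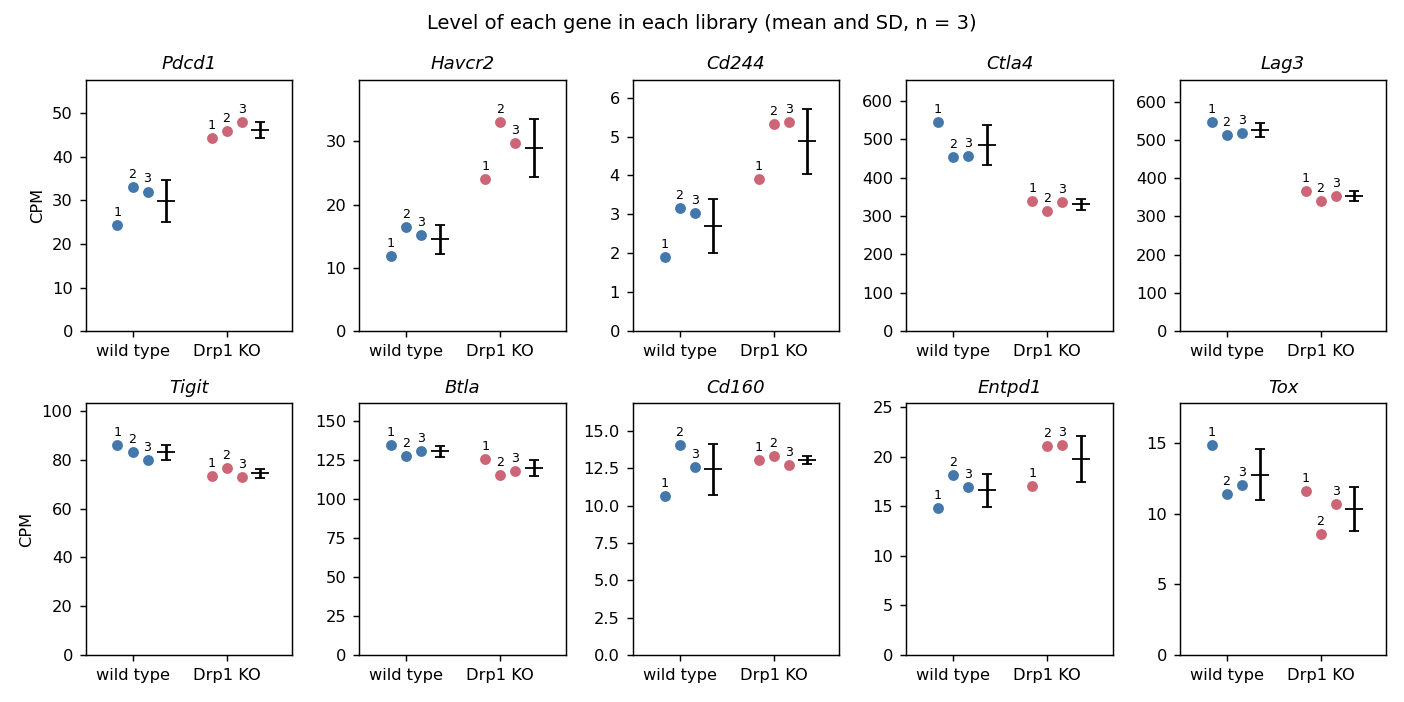
Expression in CPM (y axis, each panel from 0) of the 10 genes against genotype (x axis); each point is 1 library, numbered by replicate, with the group mean and SD drawn beside the points (n = 3). Pdcd1, Havcr2 and Cd244 are higher in every KO library than in any wild-type library, and Ctla4, Lag3, Tigit and Btla are lower.

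Lag3 and Ctla4 held most of the RNA of this group in both genotypes. Levels were compared between genes as CPM per kilobase of merged exons, the union of all annotated exons of a gene. Which of these exons the cells use was not tested, so the order between genes is approximate. In wild type Lag3 had 250 ± 8.86 CPM per kilobase (SD, n = 3), Ctla4 had 209 ± 22.3, Tigit 90.4 ± 3.17 and Btla 38.5 ± 1.05. Pdcd1 followed at 15.5 ± 2.44 CPM per kilobase. Havcr2 (5.33 ± 0.862) and Cd160 (4.70 ± 0.643) overlapped in their wild-type libraries, so their order is not resolved there. Entpd1 at 2.98 ± 0.296, Tox at 1.68 ± 0.239 and Cd244 at 0.555 ± 0.141 CPM per kilobase were the lowest. The order was the same in KO, where Lag3 had 167 ± 6.19 and Cd244 1.00 ± 0.170 CPM per kilobase, and there no neighbours in the order overlapped. All 3 genes that rose sat in the lower 6 places of that order, and the 3 that fell held its first 3 places. Together the 10 genes took 0.126% to 0.132% of all counts in wild type and 0.0998% to 0.105% in KO.

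Pdcd1 encodes PD-1, the receptor for PD-L1 and PD-L2, and lies on chromosome 1 from 94038305 to 94052553 (mm10, minus strand, 5 merged exons). It was read at 24.5, 33.1 and 32.0 CPM in wild-type replicates 1 to 3 and at 44.3, 45.9 and 48.0 CPM in KO replicates 1 to 3. The groups did not overlap, and wild-type replicate 1 was the lowest library. The log2 fold change was 0.62 ± 0.10 (SE), 1.54-fold, with an adjusted p of 0.000532. Without wild-type replicate 1 it was 0.50.

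Havcr2, on chromosome 11 from 46454935 to 46481255 (plus strand), encodes TIM-3, a receptor of activated T cells, NK cells and myeloid cells. Its wild-type libraries held 11.9, 16.4 and 15.2 CPM and its KO libraries 24.1, 33.1 and 29.7 CPM. Every KO library was above every wild-type library, and within each group replicate 1 was the lowest. This was the largest change of the 10 genes, a log2 fold change of 0.99 ± 0.13 or 1.98-fold (adjusted p = 0.000234), and without wild-type replicate 1 it was 0.87.

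Cd244 encodes the SLAM family receptor 2B4, known from NK cells and CD8 T cells, and is annotated as Cd244a on chromosome 1 from 171559193 to 171609746 (plus strand). It had the fewest reads of the group, 45, 94 and 96 counts in wild type and 140, 165 and 180 counts in KO. At 1.92, 3.16 and 3.05 CPM in wild type and 3.92, 5.32 and 5.38 CPM in KO, the groups were separate. The log2 fold change was 0.82 ± 0.19 (adjusted p = 0.00489), with the widest standard error of the 10 genes. Ly9, another SLAM family gene, overlaps the Cd244 gene on the opposite strand, but shares 0 bases of its exons.

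Markers of other cells that can carry TIM-3 or 2B4 moved in the same libraries. Of all tested genes 26.7% rose and 26.1% fell. Of 6 NK cell markers tested 5 rose and 0 fell, with a summed 428 to 452 CPM in wild type, against 532 to 556 CPM in KO. Most of that sum came from Nkg7 and Klrk1, which activated T cells also express. Ncr1, which defines NK cells, had 2, 8 and 6 counts in wild type (0.0852 to 0.269 CPM), near the floor. In KO it had 20, 24 and 19 counts (0.560 to 0.774 CPM). Klra8 and Klra4, of the same list, were too low to be tested. Klra8 overlapped (0.222 to 0.341 CPM in wild type, 0.120 to 0.387 CPM in KO). Klra4 did not (0.159 to 0.298 CPM in wild type, 0.308 to 0.387 CPM in KO). Gamma-delta T cell markers rose in 6 of 7 cases, from a summed 44.1 to 50.4 CPM to 102 to 122 CPM. Of 6 mast cell and basophil markers tested, 5 rose and 1, Kit, fell. Fcer1a reached 0.812 to 1.13 CPM in KO and was at 0.101 to 0.159 CPM in wild type (3, 3 and 5 counts, near the floor). Of the 11 macrophage and monocyte markers 4 were tested, of which 1 rose and 2 fell. Fcgr1, C1qa and C1qb were at 0 counts in all 6 libraries, and Csf1r and Adgre1 were under 0.23 CPM. Of the same list Ctss was at 76.7 to 82.4 CPM over all libraries and did not pass, Cd68 fell (24.6 to 27.7 CPM in wild type, 19.1 to 21.3 CPM in KO) and so did Itgam. Lyz2 rose (0.168 to 0.222 CPM in wild type, 0.359 to 0.560 CPM in KO), from 4, 5 and 7 counts in wild type, near the floor. Of 4 dendritic cell markers tested 0 rose and 2 fell, with a summed 80.6 to 84.9 CPM in wild type, against 70.1 to 74.5 CPM in KO. The part of these cells in the levels of Havcr2 and Cd244 was not tested.

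Lag3 encodes a CD4-like receptor that binds MHC class II and lies on chromosome 6 from 124904361 to 124911705 (minus strand). Its wild-type libraries held 548, 514 and 518 CPM and its KO libraries 366, 340 and 353 CPM. These are the tightest groups of the strongly changed genes, and they lie far apart. The log2 fold change was -0.58 ± 0.05, a level 33.0% lower, with the smallest adjusted p of the group, 2.99e-05.

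Ctla4 encodes the high-affinity receptor for CD80 and CD86 and lies on chromosome 1 from 60887000 to 60915832 (plus strand). Its libraries held 546, 455 and 458 CPM in wild type and 341, 314 and 336 CPM in KO. The groups did not overlap, and wild-type replicate 1 was the highest. Ctla4 fell by 0.56 ± 0.07 on the log2 scale (32.0% lower, adjusted p = 0.000176), and without wild-type replicate 1 the log2 fold change was -0.47. Regulatory T cells carry much CTLA-4, and of 8 markers of these cells 3 (Foxp3, Il2ra and Nrp1) rose, 0 fell and 5 did not pass, where 26.7% of all tested genes rose. Foxp3, which defines regulatory T cells, was at 0.341 to 0.470 CPM in wild-type libraries, against 0.616 to 0.987 CPM in KO. These are low counts, 8, 14 and 14 in wild type and 22, 28 and 33 in KO. The summed level of the 8 markers was 1343 to 1660 CPM in wild type, against 1847 to 1993 CPM in KO. Most of that sum was Il2ra, which activated T cells also express, at 932 to 1232 CPM in wild type, against 1433 to 1584 CPM in KO. The part of regulatory T cells in the level of Ctla4 was not tested.

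Tigit, on chromosome 16 from 43648867 to 43664146 (minus strand), encodes a receptor that binds CD155 and competes for it with the stimulatory receptor CD226. It was read at 86.0, 83.1 and 80.2 CPM in wild type and 73.6, 76.6 and 73.1 CPM in KO. The KO libraries lay just below the wild-type ones, a log2 fold change of -0.16 ± 0.05, or 10.4% lower (adjusted p = 0.0228). This call depends on single libraries and on the scaling. The adjusted p was 0.0589 without wild-type replicate 2, 0.0625 without KO replicate 1 and 0.0897 without KO replicate 3. With library totals alone as the scaling the log2 fold change was -0.082 (adjusted p = 0.181).

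The 4 genes that did not pass changed little or varied between libraries. Btla, on chromosome 16 from 45224315 to 45257670, encodes a receptor for HVEM (Tnfrsf14). It was read at 134, 127 and 130 CPM in wild type and 126, 115 and 118 CPM in KO (log2 fold change -0.13 ± 0.05, adjusted p = 0.0570). Its groups were separate by a narrow margin, and without KO replicate 1 the adjusted p was 0.0309. Cd160 (chromosome 3, 96798763 to 96829351), the other HVEM receptor of the group, is held in the membrane by a lipid anchor. It had 10.7, 14.0 and 12.6 CPM in wild type and 13.1, 13.3 and 12.7 CPM in KO, groups that overlapped (log2 fold change 0.06 ± 0.10, adjusted p = 0.612). Without wild-type replicate 1 its log2 fold change was -0.031.

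Entpd1 (chromosome 19, 40612366 to 40741602) was at 14.9, 18.1 and 16.9 CPM in wild type and 17.1, 21.1 and 21.2 CPM in KO. Only KO replicate 1 fell within the wild-type range. The log2 fold change was 0.24 ± 0.10 (adjusted p = 0.0690), with an adjusted p of 0.0179 without KO replicate 1 and 0.0488 without wild-type replicate 2. Tox (chromosome 4, 6686353 to 6991557) had 14.8, 11.4 and 12.0 CPM in wild type and 11.6, 8.58 and 10.7 CPM in KO. Its groups overlapped, with replicate 1 highest in each, and the log2 fold change was -0.30 ± 0.13 (adjusted p = 0.0765; 0.0474 without KO replicate 1). With no filter on low counts Entpd1 and Tox had adjusted p-values of 0.0275 and 0.0177.

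**Figure D2:**
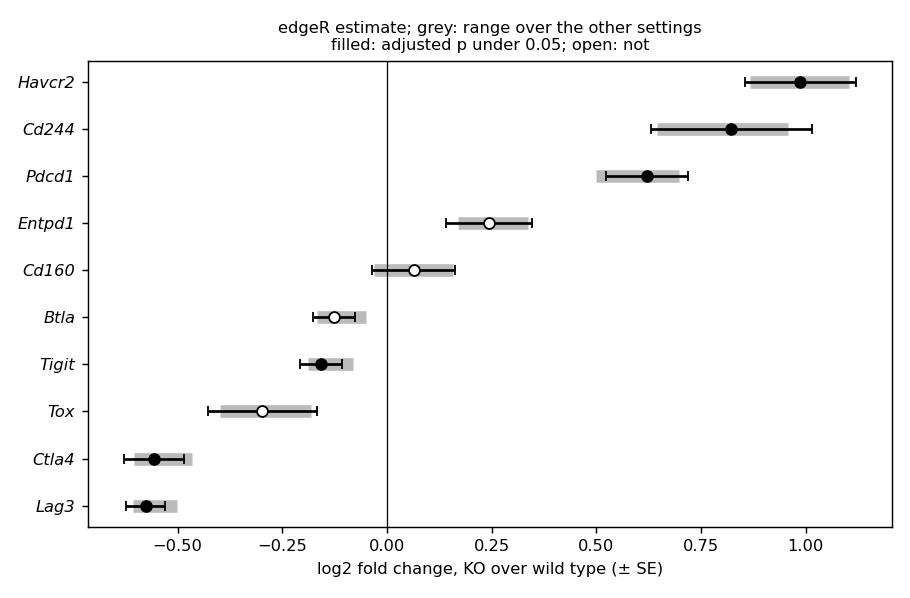
Log2 fold change of KO over wild type (x axis, with SE) for each gene (y axis); filled points passed an adjusted p under 0.05 and open points did not, and grey bars span the values over 14 other settings. Havcr2, Cd244 and Pdcd1 lie to the right at 0.99, 0.82 and 0.62, and Ctla4 and Lag3 to the left at -0.56 and -0.58; the bar of Cd160 crosses 0.

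The bases just before the transcription start are shown for 3 receptor genes that rose and for Ctla4, a strongly lowered one, so that the sequence around each start can be set beside the values. RefSeq (GRCm38.p6, the mm10 build) held a start for 8 of the 10 genes, and Lag3 and Tox are named only. The 250 bases before the start, 5′ to 3′ on the gene's strand, lie at chr1:94052554-94052803 (minus strand) for Pdcd1, chr11:46454681-46454930 (plus) for Havcr2, chr1:171558943-171559192 (plus) for Cd244 and chr1:60908775-60909024 (plus) for Ctla4. The Ctla4 window lies inside the gene span given above, since that span came from GENCODE and RefSeq places the start further downstream. Capitals mark matches, on either strand, to GGAAA (the core bound by NFAT), TGANTCA (AP-1) and CACGTG (the E box bound by Myc and other factors).
Pdcd1: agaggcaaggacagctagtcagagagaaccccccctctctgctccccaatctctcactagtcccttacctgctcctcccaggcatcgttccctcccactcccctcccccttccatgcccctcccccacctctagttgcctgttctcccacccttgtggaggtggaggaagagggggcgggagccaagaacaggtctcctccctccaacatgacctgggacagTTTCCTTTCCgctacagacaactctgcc
Havcr2: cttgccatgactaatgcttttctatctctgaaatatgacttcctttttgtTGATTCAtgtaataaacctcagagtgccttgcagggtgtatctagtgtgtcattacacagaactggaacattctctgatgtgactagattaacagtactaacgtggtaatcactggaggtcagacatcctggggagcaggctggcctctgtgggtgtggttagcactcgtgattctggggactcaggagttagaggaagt
Cd244: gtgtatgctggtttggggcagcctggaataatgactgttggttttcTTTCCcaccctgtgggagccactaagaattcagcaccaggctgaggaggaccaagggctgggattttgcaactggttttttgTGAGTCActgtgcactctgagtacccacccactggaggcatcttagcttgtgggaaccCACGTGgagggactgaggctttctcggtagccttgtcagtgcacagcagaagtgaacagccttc
Ctla4: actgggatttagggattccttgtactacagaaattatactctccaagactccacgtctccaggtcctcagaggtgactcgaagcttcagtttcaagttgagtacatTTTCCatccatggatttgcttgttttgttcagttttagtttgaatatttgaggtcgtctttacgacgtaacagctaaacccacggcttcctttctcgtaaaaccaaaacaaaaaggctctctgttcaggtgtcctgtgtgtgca

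Over 32851 RefSeq promoters of this length, 55.6% held GGAAA, 6.75% held TGANTCA and 6.02% held CACGTG on either strand. The Cd244 window held 1 match to each of the 3, and the only E box among the windows of these genes. Its E box began 64 bases before the start and its AP-1 match 122 bases before it. Havcr2 held 1 AP-1 match, 200 bases before the start, and none of the other pair. Pdcd1 had 2 NFAT cores in a row on the opposite strand, beginning 28 and 23 bases before the start, and Ctla4 had 1, 144 bases before it. The hypoxia core ACGTG, which lies inside CACGTG and so is counted there too, was in 16.6% of promoters and in the windows of Ctla4, Havcr2, Tigit, Btla and Cd244. The NR4A element AAAGGTCA, in 1.34% of promoters, was in none of the 10 windows of the 8 genes. A match is a string of letters, and binding was not measured here.

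Marker levels gave a second scale for the 10 genes, since RNA of the T cell receptor complex itself was lower in KO. The summed CPM of Cd3e, Cd3d and Cd3g was 954 ± 20.8 in wild type and 791 ± 2.77 in KO. Cd4 went from 434 ± 7.84 to 337 ± 18.3 CPM, while Cd8a was at 368 ± 9.16 and 360 ± 7.23 CPM. The ratio of Cd4 to Cd8a was 1.13 to 1.22 in wild type and 0.887 to 1.02 in KO. Of 3 CD8 T cell markers 2 fell, and Cd8a did not pass. Cd8b1 was at 210 to 222 CPM in wild type, against 190 to 194 CPM in KO. Runx3 was at 228 to 248 CPM in wild type, against 171 to 188 CPM in KO. Cd8a therefore does not stand for all CD8 T cell markers. Relative to the Cd3 genes Pdcd1 stood at 2.59%, 3.38% and 3.41% in wild type and 5.58%, 5.82% and 6.07% in KO. Lag3 stood at 57.9%, 52.5% and 55.1% in wild type and 46.1%, 43.1% and 44.6% in KO.

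Tigit and Btla changed direction on this scale, and the 5 genes with the largest changes kept theirs. The difference of mean log2 level, KO minus wild type, relative to the Cd3 genes was 1.27 for Havcr2, 1.14 for Cd244, 0.91 for Pdcd1, -0.31 for Lag3 and -0.28 for Ctla4. Tigit turned to 0.11, and its KO libraries (9.25% to 9.72% of the Cd3 genes) lay above its wild-type libraries (8.50% to 9.09%). Btla turned to 0.14, Cd160 stood at 0.35, Entpd1 at 0.52 and Tox at -0.04. Relative to Cd8a, which hardly moved while Cd8b1 and Runx3 fell, Tigit stood at -0.13 and Btla at -0.10, on the side of the CPM values. The groups did not overlap for 9 of the 10 genes relative to the Cd3 genes, the exception being Tox. The Cd3 sum was itself lower in every KO library, and the share of all tested genes was not computed on this scale. The count of 9 therefore says little about these genes. An exact two-sided permutation test of 3 against 3 libraries cannot go below p = 0.10, and those 9 genes reached it (adjusted p = 0.111 over the 10 genes), so none could pass.

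**Figure D3:**
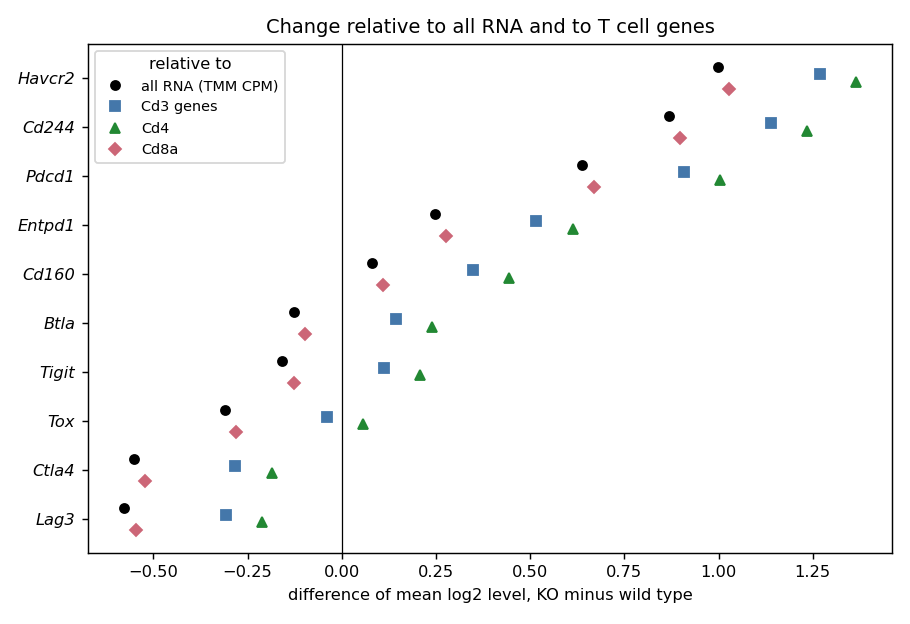
Difference of mean log2 level between KO and wild type (x axis) for each gene (y axis), on the CPM scale (circles) and relative to the Cd3 genes (squares), Cd4 (triangles) and Cd8a (diamonds). Havcr2, Cd244 and Pdcd1 lie right of 0 and Ctla4 and Lag3 left of 0 on all 4 scales, while Tigit, Btla and Tox change side; Tox does so only relative to Cd4 (0.06).

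Ratios within a library compared receptors with the partners they compete or act with, for 7 pairs. Ctla4 and Cd28, the inhibitory and stimulatory receptors for CD80 and CD86, moved down together. Their ratio was 1.15, 1.11 and 1.05 in wild type and 1.06, 1.11 and 1.03 in KO, which overlapped (difference of mean log2 ratio -0.05, exact permutation p = 0.50). Icos, a CD28 relative with its own ligand, was level at 184 ± 3.70 and 188 ± 6.33 CPM. The ratio of Ctla4 to Icos was therefore 3.04, 2.43 and 2.48 in wild type and 1.89, 1.64 and 1.76 in KO, which did not overlap (exact permutation p = 0.10, the smallest possible).

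Tigit was set against Cd226 and Cd96, which share its ligand CD155. The ratio to Cd226 was 1.85, 1.62 and 1.57 in wild type and 1.65, 1.58 and 1.49 in KO, and these overlapped. Cd96 rose (log2 fold change 0.44 ± 0.08), and the ratio of Tigit to Cd96 was 4.68, 3.87 and 3.63 in wild type and 2.79, 2.55 and 2.59 in KO, with every KO library below. The ratio of the HVEM receptors Cd160 and Btla was 0.0793, 0.110 and 0.0966 in wild type and 0.104, 0.115 and 0.108 in KO, an overlap.

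Of the pair of enzymes that act in turn on extracellular ATP, Nt5e changed and Entpd1 did not pass. Nt5e, which encodes CD73, fell from 16.8 ± 2.02 to 8.83 ± 0.979 CPM (log2 fold change -0.92 ± 0.11). The ratio of Entpd1 to Nt5e was 0.779, 1.15 and 1.10 in wild type and 1.77, 2.73 and 2.32 in KO, a mean log2 difference of 1.17, or 2.25-fold, with no overlap. Tox2 was near the floor at 6 to 10 counts a library, so its ratio to Tox (41.5 to 54.1 over all libraries) says little. Over the 7 ratios the adjusted p of the 3 that did not overlap was 0.233 (exact permutation tests), so none passed.

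**Figure D4:**
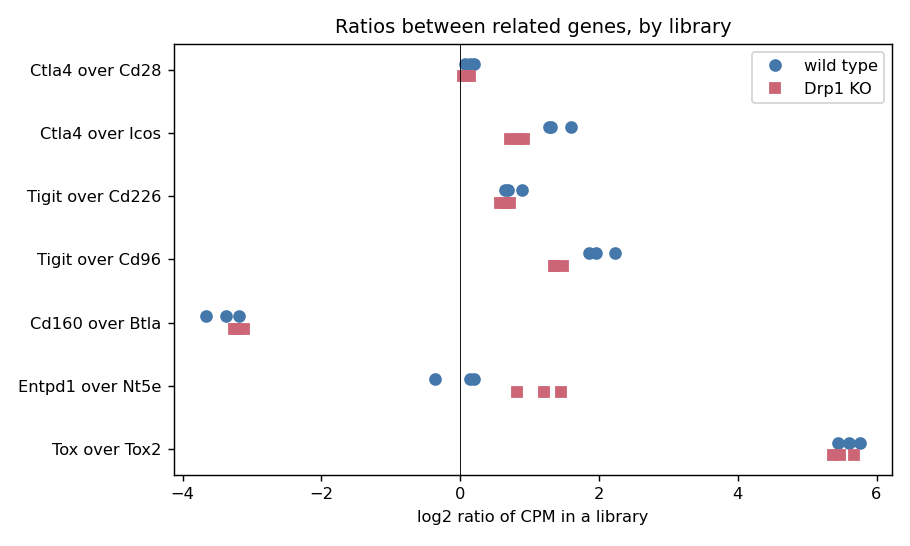
Log2 ratio of CPM (x axis) for 7 pairs of genes (y axis) in each library; circles are wild type and squares KO. The ratios of Ctla4 to Icos and of Tigit to Cd96 are lower and that of Entpd1 to Nt5e is higher in every KO library, and the ratio of Ctla4 to Cd28 overlaps.

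Ligands of these receptors are made by T cells too, and 10 of 14 tested changed, 4 higher and 6 lower (median log2 fold change -0.09), where 52.9% of all tested genes were called. Cd80, a ligand of CTLA-4 and CD28, rose from 23.5 ± 4.45 to 34.4 ± 0.682 CPM, and Hmgb1, a TIM-3 ligand, from 98.8 ± 5.62 to 138 ± 11.0 CPM. Cd86, the other ligand of CTLA-4 and CD28, went the other way, from 8.29 ± 0.628 to 6.48 ± 0.106 CPM. Pvr, which encodes the TIGIT ligand CD155, fell (log2 fold change -0.42 ± 0.05), as did Lgals3, a galectin gene (-0.67 ± 0.06). Cd274, which encodes PD-L1, was at 117 ± 2.34 and 118 ± 3.23 CPM and did not pass. Pdcd1lg2, which encodes PD-L2, rose from 17.2 ± 1.13 to 20.8 ± 0.422 CPM.

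Stimulatory receptors were called in 1 direction: of 12 tested 7 fell, 0 rose and 5 did not pass (median -0.16), where 26.1% of all tested genes fell. This direction is not particular to them, since 8 of 10 T cell markers fell and 0 rose. The Cd3 sum itself differed by -0.27 in mean log2 level, and the stimulatory receptors were not computed relative to it. Cd28 went from 441 ± 32.0 to 310 ± 23.2 CPM (log2 fold change -0.51 ± 0.07), and the SLAM gene Ly9 (-0.46 ± 0.06) and the TNF receptor genes Tnfrsf4 (-0.32 ± 0.05) and Tnfrsf18 (-0.25 ± 0.04) fell as well. With library totals alone 5 fell. Further inhibitory receptors were mixed, with 3 of 12 higher, 5 lower and 4 not passing, where 26.7% of all tested genes rose and 26.1% fell. Vsir, encoding VISTA and listed under an older name, fell from 133 ± 6.35 to 87.1 ± 4.66 CPM (-0.61 ± 0.06). Cd6 (-0.42 ± 0.06) and Laptm5, which lowers surface T cell receptor (-0.37 ± 0.05), fell, and Lilrb4 rose (0.39 ± 0.06), though it may share reads with the similar gene Gp49a.

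Genes that carry or limit the receptors' signals were mixed. Of 16 signal transducers tested 7 fell, 3 rose and 6 did not pass (median -0.09). Among all tested genes 52.9% were called, 26.7% higher and 26.1% lower, which is the background for both lists of this paragraph. The ubiquitin ligase gene Cblb (-0.37 ± 0.05), the phosphatase gene Ptpn22 (-0.31 ± 0.05) and the kinase gene Lck (-0.28 ± 0.04) fell, and the adaptor gene Dok2 rose (0.39 ± 0.06). With library totals alone 4 fell and 4 rose, and without KO replicate 2 the counts were 4 lower and 2 higher. Of 10 genes for traffic, shedding and turnover of these receptors 3 rose, 2 fell and 5 did not pass (median -0.02). Ap1m1 (0.39 ± 0.06) and Ap2m1 (0.20 ± 0.05), adaptor subunits of the kind that sort CTLA-4, rose, and Fbxo38, which tags PD-1 for degradation (-0.32 ± 0.05), and Cmtm6, which stabilises PD-L1 (-0.23 ± 0.05), fell.

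In the adenosine pathway, Entpd1 included, 3 of 10 were higher in KO, 3 were lower and 4 did not pass; the median log2 fold change was 0.20, and 5 rose with library totals alone. Adk, adenosine kinase (0.47 ± 0.06), and Slc29a1, a nucleoside transporter (0.30 ± 0.05), rose, while Nt5e and the ATP receptor gene P2rx4 (-0.40 ± 0.06) fell. Among 22 tested factors of the Tox family and network 8 fell, 3 rose and 11 did not pass (median -0.11). The background for this list and the adenosine list is again 52.9% of all tested genes called, 26.7% higher and 26.1% lower. Eomes, a T-box factor, rose from 18.5 ± 3.08 to 32.8 ± 3.12 CPM, and Rara (-0.49 ± 0.05), Bach2 (-0.43 ± 0.06) and Tcf7 (-0.41 ± 0.07), the latter pair known from quiescent and stem-like T cells, fell. Eomes is also an NK cell marker of the list above. The 3 that rose became 5 with library totals alone and 1 without wild-type replicate 2, KO replicate 1 or KO replicate 3.

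**Figure D5:**
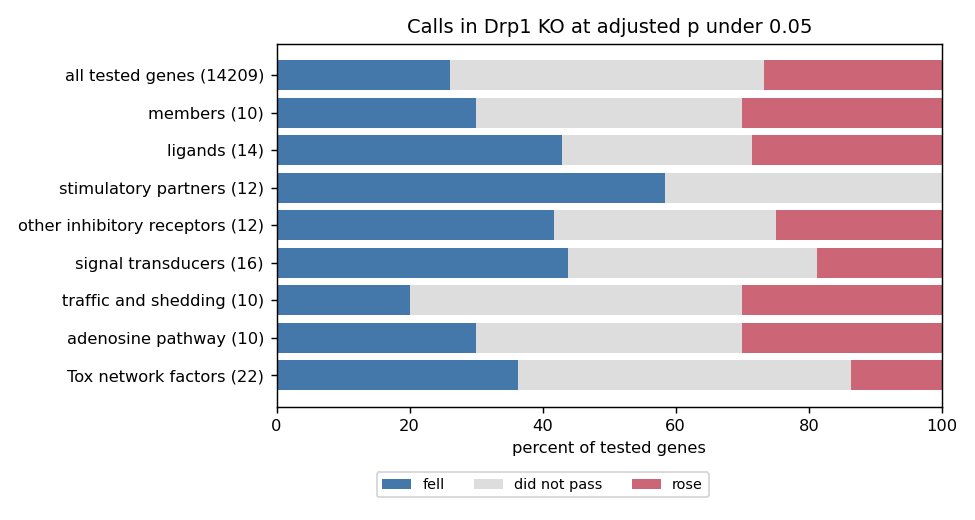
Share of tested genes (x axis, percent) that fell, did not pass or rose in KO at an adjusted p under 0.05, for the 10 genes ("members"), 7 lists around them and all 14209 tested genes (y axis, number tested in brackets). Stimulatory partners have 7 of 12 lower and 0 higher, and the 10 genes have 3 higher and 3 lower.

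Cd244 averaged under 5 CPM and was left out of the search for like patterns. For each of the other 9 genes these were sought among the 10007 genes that averaged 5 CPM or more, as the smallest root mean square difference of centred log2 CPM over the 6 libraries. Lag3 was matched most closely, by Afg3l2 (0.00925) and Adgrg1 (0.0169), and Ctla4 by Acbd3 (0.0148) and Rb1cc1 (0.0155). Pdcd1 was nearest to Mtrr (0.0285) and Bdh1 (0.0330), and Havcr2 to Zfp239 (0.0522) and Dkc1 (0.0668). These differences are not scaled to a gene's own spread. That spread, as a root mean square, was largest for Havcr2 (0.534) and smallest for Btla (0.0768). Tigit was nearest to Dgcr14 (0.0140), Btla to Zfc3h1 (0.0102), Cd160 to Nenf (0.0257), Entpd1 to Kifap3 (0.0297) and Tox to Kantr (0.0390). None of the 9 was among the nearest 2 of another.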

How the data were processed

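The members, gene lists and tests were chosen with earlier results of these data known. Raw counts for each gene symbol stand in the single table the authors deposited; per the submitters' processing notes, FastQC, STAR 2.5.2, HTSeq 0.6.1, DESeq2 1.12, Cufflinks and mm10 were used, without roles or order. The sources used here do not give the strand setting, the annotation release or the handling of multiply mapped reads. In 27 rows (0.241% of counts) symbols had become dates; they stayed in totals.

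edgeR 4.0.16 (R 4.3.3) was fitted to all 6 libraries: TMM factors (0.949 to 1.03), filterByExpr (14209 genes), quasi-likelihood F test with 4 residual degrees of freedom, Benjamini-Hochberg adjustment over all tested genes. CPM and fold changes (log2, KO over wild type) were computed here; SD is over 3 libraries. Positions and merged exon lengths came from GENCODE M21 (mm10), older symbols from RefSeq. Ratios were tested by exact permutation (scipy 1.17.1).

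Named genes were the 10 members, the 4 list genes with the smallest adjusted p in each of 7 lists (examples are printed), the ratio partners, and the 2 nearest patterns (the nearest alone for 5 genes). Cd274, Cd86, Pdcd1lg2, Cd3e, Cd8b1, Runx3, Foxp3, Il2ra, Nrp1, Ncr1, Klra8, Klra4, Fcer1a, Nkg7, Klrk1, Kit, Csf1r, Adgre1, Ctss, Cd68, Itgam and Lyz2 were singled out after their values were seen. Alternatives were other scalings and filters, DESeq2 1.42.0, limma-voom 3.58.1, the replicate block, left-out libraries and an adjusted p under 0.01. Among the members Cd244 had the fewest counts, 45 to 180 a library, and so the largest counting error.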

Additional observations from a re-analysis of the deposited data

How the results depend on the processing

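Pdcd1, Havcr2, Cd244, Ctla4 and Lag3 kept direction and call in all 14 other fits. The count of genes called (6) ran from 5 to 9. Tigit lost its call with library totals alone (-0.082) and without wild-type replicate 2, KO replicate 1 or KO replicate 3 (left-out range -0.19 to -0.13). Btla passed with DESeq2 size factors (-0.14, adjusted p = 0.0473) and without KO replicate 1 (left-out range -0.17 to -0.10). Entpd1 passed with library totals alone (0.32) and no filter (0.24), and without wild-type replicate 2 or KO replicate 1 (left-out range 0.17 to 0.34). Tox passed with no filter and without KO replicate 1 (-0.30 with no filter; left-out range -0.40 to -0.18). Cd160 changed sign without wild-type replicate 1 (-0.031, highest 0.16). The cause was not tested.

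Same-numbered libraries deviated together with r of 0.174, 0.126 and 0.0112 across genes. The values for replicates 1 and 2 were the highest of any pair, while wild-type replicate 3 did not correlate best with its own number. The labels do not say whether same-numbered libraries are paired, and these values cannot settle it. With the replicate number as a block 7900 genes were called in place of 7513, and 5 of the 10 genes were lower in place of 3: Btla (-0.13), Entpd1 (0.25, higher) and Tox (-0.31) passed. It ended no call among the 10.

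Lower signal transducers numbered 4 (main 7; higher 4, main 3) with library totals alone and 4 to 7 with libraries left out; higher adenosine genes numbered 5 and higher Tox network factors 5 (1 to 3 with libraries left out) with library totals alone. Library totals alone moved the median of all tested genes to 0.08 and raised the share of calls that were higher from 50.6% to 62.0%.

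Relative to Cd8a in place of the Cd3 genes the differences were 0.67 (Pdcd1), -0.52 (Ctla4), -0.55 (Lag3), 1.03 (Havcr2), -0.13 (Tigit), 0.11 (Cd160), -0.10 (Btla), 0.28 (Entpd1) and -0.28 (Tox). Relative to Cd4 they were -0.21 (Lag3), 0.21 (Tigit) and 0.24 (Btla). For the ratios that did not overlap, the mean log2 difference was also computed with a library left out. It ran from -0.64 to -0.48 for Ctla4 to Icos and from -0.69 to -0.50 for Tigit to Cd96. For Entpd1 to Nt5e it ran from 0.995 to 1.34.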
